A study of Mus musculus with 4 samples.

Results

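The Gzmc-high NK/ILC cells were 215 single cells among the immune cells sorted from B16 tumors: 213 came from the ZsG-negative library and 2 from the ZsG-positive library. They were chosen by their measured UMIs, that is, by the number of distinct RNA molecules counted in a cell. A cell had to hold at least 2 UMIs over *Ncr1* and *Klrb1c*, which encode the natural killer (NK) receptors NKp46 and NK1.1, at most 1 UMI over the T cell genes *Cd3d*, *Cd3e* and *Cd3g*, at most 2 over the macrophage genes *C1qa*, *C1qb* and *C1qc*, and at least 5 of *Gzmc*. The sort held 10605 barcodes, of which 8822 had at least 1000 and fewer than 6000 genes with under 10% of UMIs from mitochondrial genes, and 2153 of these were NK/ILC cells by the receptor limits. The NK/ILC cells with fewer than 5 *Gzmc* UMIs, 1856 ZsG-negative and 82 ZsG-positive cells, served as the comparison and are called Gzmc-low.

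The tumors were grown subcutaneously in wild-type C57BL/6 mice from B16ZsG, a single cloned line of the B16-F10 melanoma, picked for bright fluorescence, that makes the green protein ZsGreen (ZsG) when doxycycline (dox) is given. All mice drank dox in their water, and tumors were taken on day 8. CD45-positive TILs, the study's name for tumor-infiltrating immune cells, were sorted into a ZsG-negative gate and a gate for bright ZsG, each sequenced as 1 library, so both gates shared the mouse strain, the tumor clone and dox, and no library had a replicate. By the study's account of this sort, most lymphocytes that carried ZsG were collected with the ZsG-negative cells, so that library is not free of cells with ZsG. How many mice each library came from was not stated in the sources read. A second sort of TCR-positive cells gave the other 2 libraries of the study. The ZsG-negative library held 5437 barcodes with 47537541 UMIs, the ZsG-positive library 5168 barcodes with 56510578 UMIs, and 6 barcodes occurred in both, none of them a Gzmc-high cell. Intervals below are 95% intervals for counting error only and do not describe the spread between mice.

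NK cells and the related innate lymphoid cells (ILCs) kill or alert other cells without a rearranged antigen receptor. Their cytotoxic granules carry perforin, which opens the target cell membrane, and granzymes, serine proteases that enter through it. Granzymes A and B are the common members in mouse NK cells, whereas granzymes C, D, E, F and G are a rodent cluster beside the granzyme B gene that is best known from strongly stimulated killer lymphocytes.

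In the GENCODE vM21 annotation on GRCm38, *Gzmc* spans chr14:56231441-56234656 on the minus strand in 5 exons. The genes *Gzme*, *Gzmd*, *Gzmg*, *Gzmn*, *Gzmf*, *Gzmc* and *Gzmb* follow each other on that strand over 145 kb. The promoters of 4 of them (RefSeq, GRCm38.p6, minus strand, from 250 bases before to 50 bases after the annotated start) are shown because these genes share a locus but differed in how many Gzmc-high cells held their transcripts. Capitals mark the RUNX-type letters AACCACA or their complement and the CRE-type letters TGACGTCA, both searched on both strands. The windows are chr14:56234608-56234907 for *Gzmc*, chr14:56132544-56132843 for *Gzmd*, chr14:56211358-56211657 for *Gzmf* and chr14:56262285-56262584 for *Gzmb*.
Gzmc: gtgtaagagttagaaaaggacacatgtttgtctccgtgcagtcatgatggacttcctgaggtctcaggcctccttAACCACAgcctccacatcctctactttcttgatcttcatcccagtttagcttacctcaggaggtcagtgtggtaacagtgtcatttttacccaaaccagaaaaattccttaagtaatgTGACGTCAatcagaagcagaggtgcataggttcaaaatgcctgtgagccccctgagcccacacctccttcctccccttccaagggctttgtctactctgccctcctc
Gzmd: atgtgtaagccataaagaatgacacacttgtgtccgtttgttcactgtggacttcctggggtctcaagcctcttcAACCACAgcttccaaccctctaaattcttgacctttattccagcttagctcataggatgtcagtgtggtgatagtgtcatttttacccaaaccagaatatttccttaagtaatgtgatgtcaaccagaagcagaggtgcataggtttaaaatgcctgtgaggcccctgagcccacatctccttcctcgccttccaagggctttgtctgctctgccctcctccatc
Gzmf: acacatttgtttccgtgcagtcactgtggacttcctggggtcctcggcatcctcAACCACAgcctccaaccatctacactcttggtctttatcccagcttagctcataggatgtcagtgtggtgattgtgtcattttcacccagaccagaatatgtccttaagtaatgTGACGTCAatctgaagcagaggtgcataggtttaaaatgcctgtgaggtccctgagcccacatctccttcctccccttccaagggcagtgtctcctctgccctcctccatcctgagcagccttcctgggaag
Gzmb: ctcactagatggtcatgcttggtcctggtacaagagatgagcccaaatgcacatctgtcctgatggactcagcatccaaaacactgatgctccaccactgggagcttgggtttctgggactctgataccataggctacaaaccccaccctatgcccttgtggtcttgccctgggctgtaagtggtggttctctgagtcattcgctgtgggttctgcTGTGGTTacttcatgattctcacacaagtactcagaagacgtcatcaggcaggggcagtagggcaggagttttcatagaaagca

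AACCACA occurred once in the promoters of *Gzmc*, *Gzmd*, *Gzme*, *Gzmf*, *Gzmg* and *Gzmb*, and in 5.27% of 32851 mouse promoters of the same length. TGACGTCA occurred in those of *Gzmc*, *Gzmf* and *Gzmg*, against 1.79% of all promoters. Aligned with the *Gzmc* promoter, those of *Gzmd* and *Gzme* were each 82.7% identical and that of *Gzmb* 46.0%. The matches describe letters in the sequence, not binding. The libraries counted transcript ends, and the last 300 bases of the *Gzmc* transcript were 45.6% identical to those of *Gzmd* and 52.4% to those of *Gzme*, with no shared run over 10 bases. Among *Gzmd*, *Gzme*, *Gzmf* and *Gzmg*, the ends of each pair were between 82.4% (*Gzmd* and *Gzmg*) and 87.9% (*Gzmf* and *Gzmg*) identical, so reads may have been split among all 4 genes and their separate values are uncertain, whereas the ends of *Gzmc* differ from all of them.

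*Gzmc* itself, the gene of the rule, ranged from 5 to 1090 UMIs per ZsG-negative Gzmc-high cell with a median of 29. Summed over cells and scaled to a library of 1000000 UMIs (CPM), this was 5906 CPM (5816 to 5996) over 213 cells, against 52.1 CPM (47.7 to 56.8) over 1856 Gzmc-low cells, of which 345 held a *Gzmc* UMI. The Gzmc-high cells were also much deeper. Their median was 11493 UMIs and 2789 genes per cell, against 4473 UMIs and 1680 genes in Gzmc-low cells, while mitochondrial UMIs took a median of 4.14% and 4.02%. A minimum in UMIs admits a deep cell more easily than a shallow one, so values are also given within a UMI window, the cells of either group between 8103 and 16904 UMIs (the quartiles of the Gzmc-high cells), which held 107 Gzmc-high cells with a median of 11493 UMIs and 182 Gzmc-low cells with a median of 10111.

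**Figure D1:**
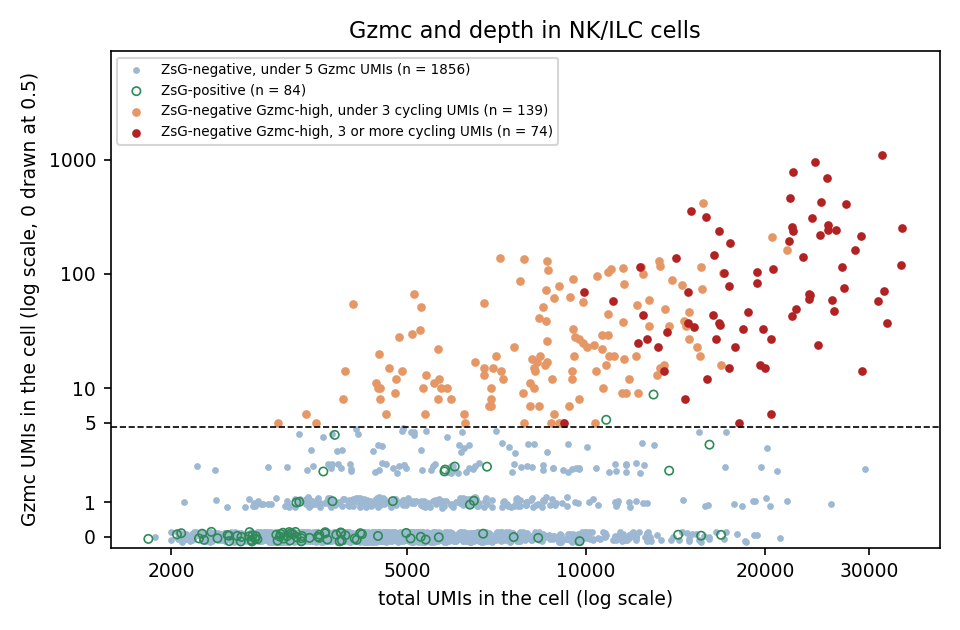
*Gzmc* UMIs (y axis, log scale) against total UMIs (x axis, log scale) of each NK/ILC cell, 1 point per cell (0 drawn at 0.5, points spread slightly in height), with the rule's minimum of 5 UMIs as a line. Gzmc-high cells lie toward the right, and the 74 with transcripts of dividing cells before thinning lie furthest right, with a median of 20268 UMIs against 8726 in the other 139.

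Gzmc-high cells made up 10.3% (9.02 to 11.7, exact binomial) of 2069 ZsG-negative NK/ILC cells and 2.38% (0.290 to 8.34) of 84 ZsG-positive ones. With every cell thinned to 3000 UMIs, the ZsG-negative share was 7.98% (148 of 1855 cells), and no ZsG-positive cell of 62 reached 5 *Gzmc* UMIs, which allows a share of up to 4.84% by a limit of 3 cells and 5.78% by the exact binomial interval. The 2 ZsG-positive cells held 5 and 8 *Gzmc* UMIs among 10812 and 12989 UMIs, 11 and 13 *Gzmb* UMIs, and 0 *Klrg1* UMIs each. They therefore sat at the low end of the *Gzmc* range, and all further values of NK/ILC cells and T cells are from the ZsG-negative library. Cell loading and the gates can set such shares, and since dim ZsG lymphocytes were collected as ZsG-negative, the shares do not compare NK/ILC cells without and with ZsG.

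Of the 379 ZsG-negative cells with at least 5 *Gzmc* UMIs, 213 (56.2%) passed the other limits. The largest remaining group was 107 T cells (at least 2 *Cd3* UMIs with fewer than 2 over *Ncr1* and *Klrb1c*), and 48 cells carried both the *Cd3* and the NK receptor genes. High *Gzmc* was thus a property of some T cells too, which are set beside the Gzmc-high cells below. At the threshold itself, the 10 cells with 5 *Gzmc* UMIs had a median of 8863 UMIs and the 17 cells with 4 a median of 5070. *Ccl5*, a chemokine that draws T cells, measured 470 CPM just inside and 5034 CPM just outside. *Spp1* measured 446 and 132 CPM, *Gzmb* 482 and 2234 CPM, and *Xcl1* 834 and 2668 CPM. These values rest on few cells, and the wider classes next to the threshold differed from them, with *Gzmb* at 1448 CPM for 5 to 9 and 1559 CPM for 3 or 4 *Gzmc* UMIs, and *Xcl1* at 1873 and 1562 CPM.

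The label was checked against NK genes the rule did not use. At least 2 UMIs over 5 Ly49 genes (*Klra3*, *Klra4*, *Klra7*, *Klra8* and *Klra9*), the MHC class I receptors of mouse NK cells, were found in 181 of 213 Gzmc-high cells (85.0%) and in 1613 of 1856 Gzmc-low cells (86.9%). After thinning to 3000 UMIs these shares were 68.5% (61.8 to 74.7) and 81.6% (79.6 to 83.5), against 0.0578% of macrophage-type cells with at least 10 C1q UMIs (1742 cells of both libraries, all but 5 of them ZsG-positive, with a median of 12400 UMIs before thinning). *Eomes*, the transcription factor of conventional NK cells, measured 147 and 212 CPM, and it was found in 71.4% and 58.1% of cells as sequenced but in 30.5% and 44.1% after thinning. *Klrb1c*, a gene of the rule, measured 191 and 582 CPM (log2 ratio -1.60, and -0.67 within the window), and *Ncr1*, the other receptor of the rule, 422 and 476 CPM. Of 8 genes that mark ILC2 and ILC3, 7 had no UMI in any Gzmc-high cell. Of the further markers given with the label, *Klrg1*, an inhibitory receptor for cadherins, was higher at 134 CPM (121 to 149) against 23.8 CPM. *Xcl1*, the chemokine for cross-presenting dendritic cells, was at 1331 against 1040 CPM, but it did not set the group apart, since Gzmc-low cells with 1 or 2 *Gzmc* UMIs held 1727 CPM and those without Ly49 genes 1785 CPM. *Klrg1* was found in 42.3% of Gzmc-high cells (90 of 213) and in 8.78% of Gzmc-low cells. After thinning it was found in 22.1% (16.7 to 28.2) and 5.66%, and in none of the thinned macrophage-type cells. A cell with 0 *Klrg1* UMIs may still hold its transcript, so these shares do not show how much of the group carries the marker.

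Transcripts of other cell types were looked at as whole lists. Summed over the 12 T cell genes, Gzmc-high cells held 776 CPM and Gzmc-low cells 943 CPM, mostly *Trbc1*, with *Cd4* and *Tcrg-C1* at 0 in Gzmc-high cells. The 12 macrophage and monocyte genes summed to 1114 and 593 CPM, with *Spp1* the most abundant, and *Csf1r*, *Adgre1* and *Fcgr1* were at 0. The 8 dendritic cell genes summed to 186 and 201 CPM, the 6 mast cell and basophil genes to 56.1 and 46.0 CPM (mainly *Kit*), and of 5 melanocyte genes only *Dct* had a UMI, a single one. The 6 B cell genes summed to 131 and 84.5 CPM, mainly *Ighm*, and 1 Gzmc-high cell held all 8 *Cd79a* UMIs and 40 of 41 *Igkc* UMIs of the group. Apart from that single *Dct* UMI, against none in Gzmc-low cells, none of these lists summed to 2-fold more in Gzmc-high than in Gzmc-low cells. The gene counts given next (521 higher, 389 lower) were 522 and 405 with no UMI of the *Cd3* and C1q genes allowed. They were 501 and 386 without the top 5% of doublet scores. Without cells holding a *Cd79a* UMI they were 520 and 401, a setting added after the data were seen. The rule already limited the *Cd3* and C1q genes, and the doublet scoring was taken as not having worked. These counts therefore do not show whether the group held doublets.

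Of 8898 genes tested, each found in 5% or more of the cells of at least 1 group, 521 (5.86%) were at least 2-fold higher and 389 (4.37%) at least 2-fold lower in Gzmc-high than in Gzmc-low cells, with a median log2 ratio of -0.05. Since the groups came from 1 library and cells are not replicates, a gene counts as higher or lower by this fold alone and no test was run. The genes were split by the same cells whose *Gzmc* chose the group, so the ratios describe the cells. Within the UMI window, with genes selected anew by the cells in it, 261 of 8927 genes were higher and 527 lower. Without the cells holding transcripts of dividing cells, 219 of 8147 genes were higher and 295 lower.

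Among the granule genes, *Gzmb* and *Gzma* lay on opposite sides of an even ratio, both within 2-fold. *Gzmb*, the protease that cuts caspases in the target, measured 1630 CPM (1583 to 1678) in Gzmc-high and 1154 CPM (1133 to 1176) in Gzmc-low cells, a log2 ratio of 0.50 (0.45 to 0.55) that was 0.87 within the UMI window. *Gzma*, which encodes a tryptase, measured 3844 and 6494 CPM, a log2 ratio of -0.76 that was -0.36 within the window. *Prf1*, the gene of perforin, measured 1226 and 745 CPM, a log2 ratio of 0.72. So the shift was neither a general gain nor a general loss of granule transcripts. Of the 11 genes of the killing machinery, 1 was at least 2-fold higher (*Tnfsf10*, the death ligand TRAIL, at 31.6 and 14.5 CPM), none was 2-fold lower, and the median log2 ratio was -0.11. Over all genes tested, 5.86% were at least 2-fold higher. None of the 11 passed 2-fold within the UMI window or without dividing cells. *Nkg7*, a granule membrane protein needed for degranulation, was at 1281 and 2330 CPM, and *Fasl*, the ligand of the death receptor Fas, at 125 and 246 CPM. *Gzmm*, a granzyme typical of innate lymphocytes, was higher at 25.9 against 8.07 CPM, with a log2 ratio of 1.68.

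*Gzmd* and *Gzme*, neighbours of *Gzmc* on chromosome 14, had the highest ratios of the named genes, but in few cells. *Gzmd* summed to 427 CPM (404 to 452) against 1.94 CPM, a log2 ratio of 7.75 (7.13 to 8.52), from 23 of 213 Gzmc-high cells. The 3 cells with the most *Gzmd* held 513, 259 and 193 UMIs, 80.2% of the group's 1203. These cells also held 1090, 409 and 776 *Gzmc* UMIs, which includes the highest *Gzmc* count of the group, and 171, 82 and 89 *Gzme* UMIs. *Gzme* was found in 29 cells at 196 CPM against 1.12 CPM, a log2 ratio of 7.38 (6.60 to 8.46), and 62.0% of its 552 UMIs were in 3 cells. All 141 *Gzmg* UMIs were in the same 3 cells that led for *Gzmd*, and they held 1, 4 and 1 *Gzmf* UMIs. *Gzmf* summed to 63.9 CPM in 13 cells, 3 of which held 90.0% of its UMIs, with 14, 217 and 49 *Gzmc* UMIs. *Gzmn* had no UMI in either group. Without the 3 cells that led for *Gzmd*, the log2 ratios were 5.45 for *Gzmd* and 6.03 for *Gzme*, and 505 genes were higher and 383 lower, a setting added after the data were seen. Without the 74 Gzmc-high and 62 Gzmc-low cells with transcripts of dividing cells, *Gzmd* kept 21 of its 1203 UMIs and the log2 ratios were 3.03 for *Gzmd* and 4.02 for *Gzme*. This step also left out the 3 cells that led for *Gzmd*, 2 of them with only 3 and 4 division UMIs. Most Gzmc-high cells thus held *Gzmc* and *Gzmb* with no UMI of the other members of the cluster. The 34 cells with a *Gzmd* or *Gzme* UMI had a median of 96.5 *Gzmc* UMIs, and the other 179 a median of 25. These 34 cells were also deeper, with a median of 16896 against 10686 UMIs in all. Scaled to depth, *Gzmc* measured 9517 and 4847 CPM.

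**Figure D2:**
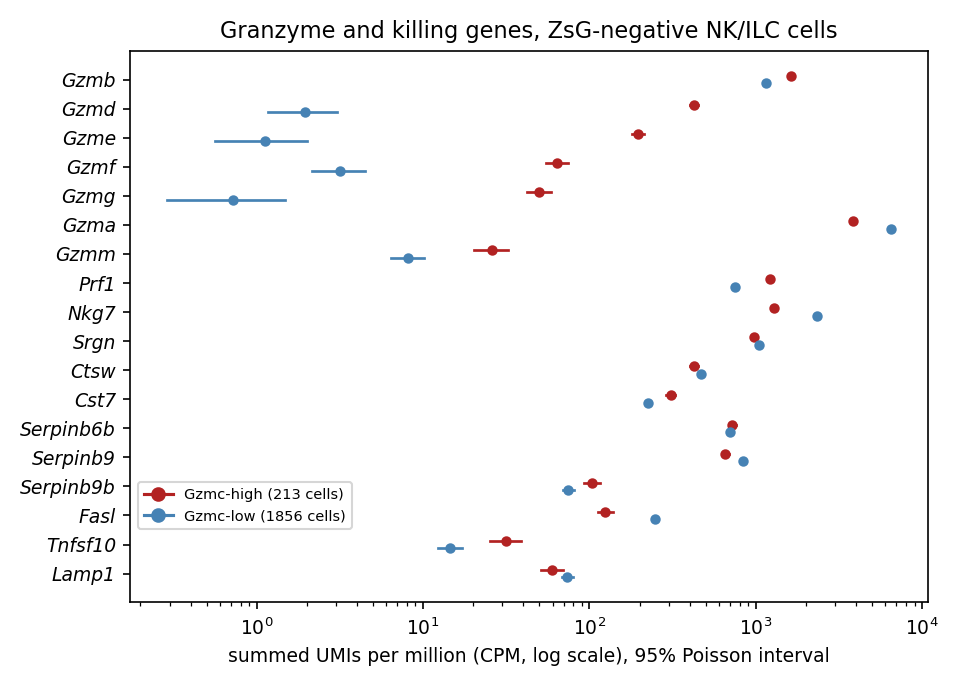
Levels of 18 granzyme and killing genes in Gzmc-high (213 cells) and Gzmc-low (1856 cells) ZsG-negative NK/ILC cells, as CPM of summed UMIs on a log axis, with exact Poisson 95% intervals. *Gzmb* (1630 against 1154 CPM) and *Prf1* (1226 against 745 CPM) lie close together in both groups, whereas *Gzmd* (427 against 1.94 CPM) lies far apart.

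The named genes were the 15 with the highest and the 15 with the lowest ratio among genes found in at least 10% of the cells of the higher group. Besides *Gzmd* and *Gzme*, the higher ones included *Spp1*, which encodes the secreted phosphoprotein osteopontin, at 907 CPM (872 to 942) against 66.8 CPM, a log2 ratio of 3.76 (3.64 to 3.89). Of the 2552 *Spp1* UMIs of the Gzmc-high cells, 1 cell held 503 and 3 cells held 31.0%. Without the 3 cells that led for *Gzmd*, the *Spp1* ratio was 3.31, outside that interval. *Spp1* was found in 52.1% of Gzmc-high and 6.79% of Gzmc-low cells, and after thinning in 40.8% (34.2 to 47.8) and 5.18%, against 1.04% of T cells with fewer than 5 *Gzmc* UMIs and 26.9% of the macrophage-type cells. The ZsG-negative library held 5 macrophage-type cells, and these had 0 *Spp1* UMIs. So few cells allow a level of up to 87.2 CPM, which is above that of Gzmc-low cells. *Pdgfa*, a chain of platelet-derived growth factor, measured 130 and 10.6 CPM (log2 ratio 3.60), and it was found in 41.3% and 3.66% of cells. Both genes stayed at least 2-fold higher within the UMI window, with log2 ratios of 1.45 for *Spp1* and 2.28 for *Pdgfa*. *Myo10*, an unconventional myosin of filopodia, measured 58.3 and 3.17 CPM (log2 ratio 4.18, and 2.65 within the window). *Sema6d*, a transmembrane semaphorin, measured 52.6 and 3.98 CPM (3.71 and 2.62). *Ccdc184*, a coiled-coil gene, was at 97.3 and 6.03 CPM (a log2 ratio of 3.12 within the window) and found in 35.2% of Gzmc-high cells. The remaining higher genes were *Pxdc1*, *AA467197*, *Filip1*, *Slc17a6*, *Gm44040* and the division genes *Pimreg*, *Kntc1* and *Ccne1*, with log2 ratios from 3.05 to 5.37. Without dividing cells, *Pimreg* and *Kntc1* were left with 1 and 0 UMIs in Gzmc-high cells. *Slc17a6*, a glutamate transporter of synaptic vesicles, rested on 25 Gzmc-high cells, and its log2 ratio of 4.59 was 1.67 within the window.

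The lower genes included *Ccl5*, at 996 CPM (959 to 1033) against 5782 CPM (5734 to 5830), a log2 ratio of -2.54 that was -1.38 within the window and -1.73 without dividing cells. After thinning, a *Ccl5* UMI was found in 57.3% of Gzmc-high and 94.4% of Gzmc-low cells. *Klf2*, a transcription factor that keeps up the genes for leaving tissue, measured 28.4 and 170 CPM (log2 ratio -2.57, and -1.34 within the window). Its known target *S1pr1*, the receptor that guides lymphocytes back to the blood, measured 1.07 CPM (3 UMIs) and 23.2 CPM. *Cxcr4*, a chemokine receptor, measured 26.6 and 136 CPM (log2 ratio -2.35, and under 2-fold at -0.97 within the window), *Klf3* 10.3 and 47.0 CPM, and *Pmepa1*, a feedback inhibitor induced by TGF-beta, 13.5 and 139 CPM (log2 ratio -3.34, and -2.06 within the window). The others were *Pde2a*, *Dhrs3*, *Gm26740*, *Sult2b1*, *Ninj1*, *Gstm1*, *Mirt1*, *Icam2* and *Smpdl3a*, with log2 ratios from -2.03 to -2.91, of which *Dhrs3* was under 2-fold within the window (-0.86). *Lyz2*, a macrophage lysozyme, had the lowest ratio, at 12.8 against 260 CPM. In that case 10 Gzmc-low cells with at least 10 *Lyz2* UMIs held 87.9% of the 2548 *Lyz2* UMIs, and no Gzmc-high cell held as many, so the ratio rests largely on those 10 cells.

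**Figure D3:**
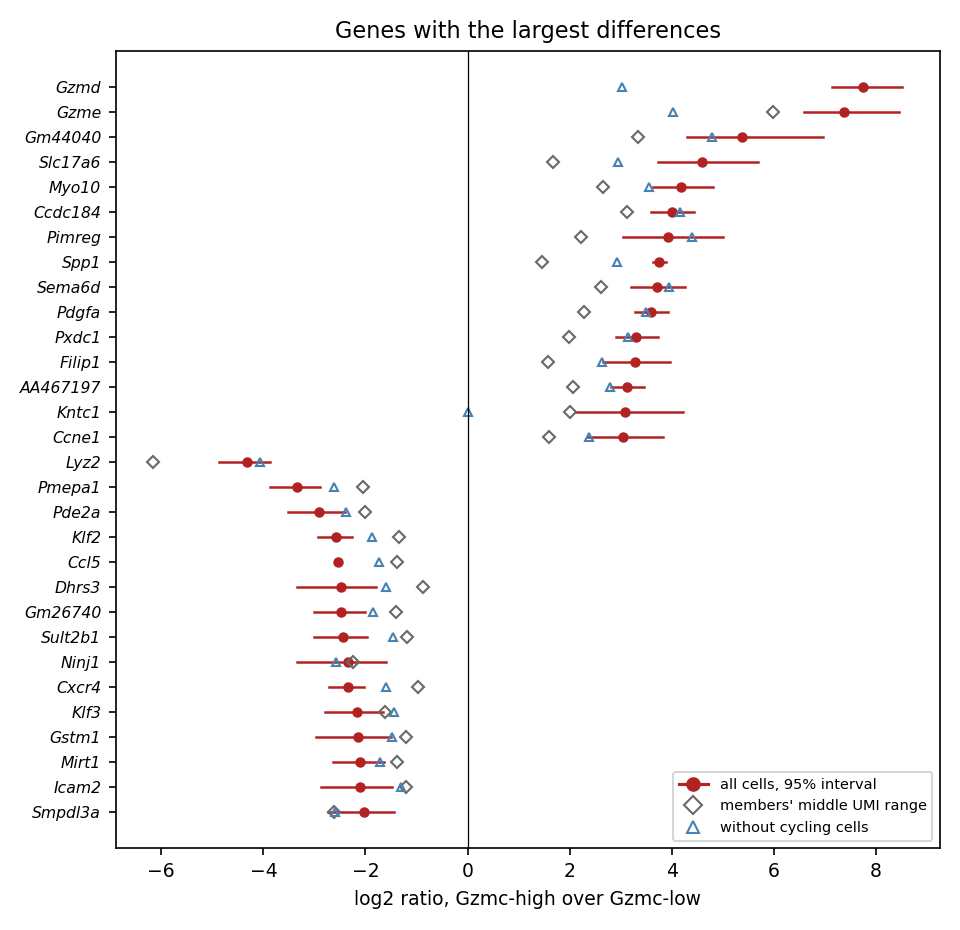
Log2 ratios of Gzmc-high over Gzmc-low cells for the 30 named genes, with exact conditional 95% intervals for all cells (213 against 1856), and as diamonds within the UMI window (107 against 182 cells) and as triangles without cells holding transcripts of dividing cells (139 against 1794). For genes such as *Spp1* (3.76, 1.45 and 2.93) and *Ccl5* (-2.54, -1.38 and -1.73) the diamonds lie nearer to 0. The side of the diamonds shows no stability, since the same direction in the window was part of the choice of genes. *Gzmd* has no diamond, since no Gzmc-low cell in the window held it, and the triangle of *Kntc1* rests on 0 Gzmc-high UMIs.

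Of 12 genes of circulating, conventional NK cells tested, 8 were at least 2-fold lower and none higher, with a median log2 ratio of -1.26, against -0.05 over all genes tested. Within the window 5 of the 12 were lower and the median was -0.82. *Itga2*, the integrin CD49b, measured 27.0 and 83.1 CPM, and *Zeb2*, a maturation factor, 38.7 and 91.7 CPM. *Irf8* (1121 and 1114 CPM) and *Ccr2* (451 and 534 CPM) lay within 2-fold, so the list did not move as a block. Of 17 genes of ILC1 and tissue residence, 3 were higher and 3 lower, with a median of 0.12. *Il2ra*, the high-affinity chain of the IL-2 receptor, was higher at 42.6 against 10.8 CPM (log2 ratio 1.98, and 1.55 in the window). *Cd7* (61.5 and 213 CPM) and *Il7r* (13.1 and 36.3 CPM) were lower. *Itga1*, the integrin CD49a that marks tissue-resident cells, was at 12.4 and 8.38 CPM. The residence list thus had as many genes higher as lower.

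Receptor lists are given over all cells and within the UMI window, which also holds fewer cells. The window counts of lists are over the 8898 genes tested in all cells, of which 278 (3.12%) were at least 2-fold higher and 377 (4.24%) at least 2-fold lower in the window. Of 7 Ly49 genes, 2 were at least 2-fold lower, *Klra4* at 295 and 749 CPM and *Klra8* at 227 and 479 CPM, but within the window none was 2-fold lower and 1 was 2-fold higher, with a median of -0.09. Of 16 other NK receptor genes 1 was higher and 1 lower, shares near those of all genes. They were *Klrg1*, with a log2 ratio of 2.49 (1.83 within the window), and *Klrc2*, at 76.0 against 154 CPM. Of 18 cytokine receptors 6 were lower and 1, *Il2ra*, higher. The lower ones included *Cxcr3* (16 and 50.7 CPM), *Il18r1* (59.0 and 140 CPM) and *Ifngr1*, a chain of the interferon gamma receptor (516 and 1408 CPM, log2 ratio -1.45, -0.63 within the window). Within the window 2 of the 18 were lower and 2 higher. Of 15 inhibitory and costimulatory receptors 6 were higher and 3 lower, against 1 and 1 within the window, while the median log2 ratio was 0.31 and 0.40. *Tnfrsf9*, the costimulatory receptor 4-1BB, measured 441 and 214 CPM (log2 ratio 1.04), *Lag3* 21.7 and 7.36 CPM and *Cd83* 47.2 and 22.3 CPM. *Havcr2*, the gene of TIM-3, rested on 14 Gzmc-high cells at 12.8 against 0.817 CPM. *Cd27* (92.7 and 209 CPM) and *Cd28* (30.5 and 76.7 CPM) were lower.

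Of 19 transcription factors and related genes, *Ikzf2* was higher at 170 against 83.5 CPM, and 3 were lower. The latter were *Bcl2*, the survival factor counted in this list (125 and 346 CPM), *Nfil3* (30.9 and 64.7 CPM) and *Nr4a1*, an early gene of receptor signalling (81.0 and 166 CPM). Over all genes tested 5.86% were higher and 4.37% lower. Within the window none of the 19 was higher and 1 was lower. The median log2 ratio of this list was -0.29 over all cells and 0.13 within the window. *Tbx21* and *Runx3*, which drive killer lymphocyte programs, were at 71.0 and 79.1 CPM and at 314 and 319 CPM. Of 12 genes that TGF-beta is known to induce or that carry its signal, 4 were at least 2-fold lower (2 within the window) and none higher, with a median log2 ratio of -0.76 (-0.45 within the window). *Smad3*, which carries the TGF-beta signal, measured 7.10 and 28.6 CPM, and *Cd9* 85.3 and 203 CPM. *Smad7* (139 and 235 CPM) lay within 2-fold, and its log2 ratio was 0.04 within the window. Of 12 interferon response genes, *Irf7* was lower at 27.4 against 72.4 CPM and *Ly6a* higher at 247 against 88.6 CPM, with a median of -0.46. Within the window 5 of the 12 were lower and none higher, with a median of -0.79. Of 10 cytokines and chemokines, *Spp1* and *Ccl1* were higher and *Ccl5* lower, and *Ifng* measured 59.0 and 61.9 CPM. *Ccl1* was carried by 21 Gzmc-high and 23 Gzmc-low cells, the fullest with 94 and 186 UMIs, so its 150 and 26.1 CPM rest on few cells.

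Among metabolic genes, those of glycolysis, the breakdown of glucose, had the largest share past 2-fold. Of 13 glycolysis genes 7 were at least 2-fold higher and none lower, with a median log2 ratio of 1.09 (0.55 within the window, where 1 gene was 2-fold higher). *Gapdh* measured 1989 and 933 CPM, *Pgk1* 494 and 187 CPM, *Ldha*, which makes lactate, 925 and 429 CPM, and *Hk2*, the entry enzyme hexokinase, 19.9 and 6.85 CPM. All 13 genes of Myc targets and ribosome assembly had ratios above 0, with a median of 0.67 (0.26 within the window), and 2 of them, *Srm* and *Nhp2*, passed 2-fold, none within the window. Of 7 genes of amino acid and iron uptake, 2 were at least 2-fold higher and none lower, with a median of 0.43. Within the window none of these 7 passed 2-fold and the median was 0.14. Lists of other cell machinery differed less: none of 15 oxidative phosphorylation, 13 proteasome, 18 cytosolic ribosome or 13 mitochondrially encoded genes passed 2-fold, with medians of 0.23, 0.31, 0.21 and -0.01.

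**Figure D4:**
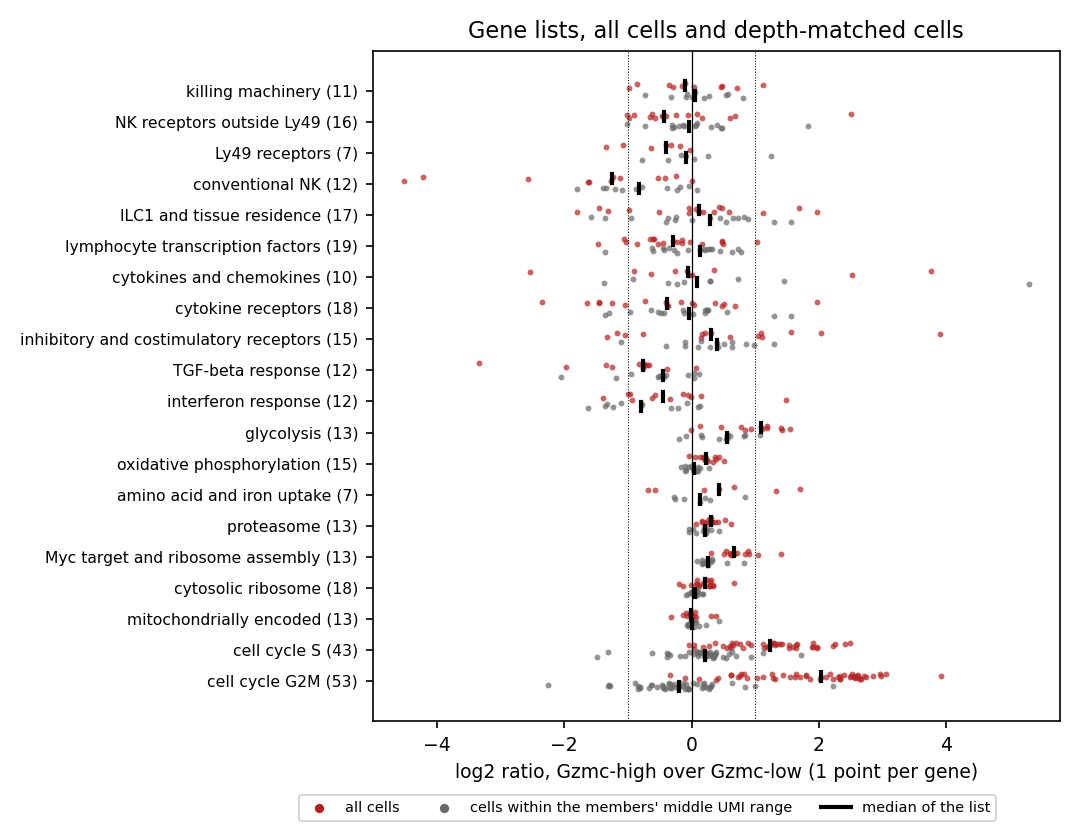
Log2 ratio of each tested gene, Gzmc-high over Gzmc-low, by gene list (number tested in brackets), for all cells (red) and within the UMI window (grey), with each list's median as a bar and dotted lines at 2-fold. The median of the conventional NK list stays below 0 but moves inside the 2-fold line (-1.26 and -0.82), and that of the G2M list crosses 0 (2.03 and -0.21).

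Dividing cells took a larger share of Gzmc-high than of Gzmc-low cells before cells of like depth were compared, and within the UMI window the direction depended on thinning. After thinning to 3000 UMIs, at least 3 UMIs over 10 division genes such as *Mki67* and *Top2a* were found in 20.2% of Gzmc-high cells (43 of 213, 15 to 26.2) and in 2.13% of Gzmc-low cells (35 of 1642, 1.49 to 2.95). Unthinned shares were 34.7% and 3.34%. Within the UMI window and thinned, the shares were 6.54% (7 of 107, 2.67 to 13) and 7.69% (14 of 182, 4.27 to 12.6), whose intervals overlap. Unthinned shares in the window were 22.4% (24 of 107, 14.9 to 31.5) and 11.5% (21 of 182, 7.29 to 17.1), and these intervals overlap as well. Of 43 S phase genes tested 26 were at least 2-fold higher, and of 53 G2M genes 41, with medians of 1.22 and 2.03 that became 0.22 and -0.21 within the window. Whether division, cell size or capture set the depth of these cells was not tested.

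Among the Gzmc-high cells, those with at least 3 division UMIs before thinning held most of the *Gzmd* and *Gzme* UMIs. These cells were also deeper, with a median of 20268 against 8726 total UMIs. *Gzmd* measured 771 CPM in them and 16.4 CPM in the rest, and *Gzme* 343 and 20.3 CPM. Of the 3 cells that led for *Gzmd*, 2 lay near the limit, with 3 and 4 division UMIs among 31458 and 22282 UMIs, and the other held 16. The 2 cells near the limit held 513 and 193 of the 1182 *Gzmd* UMIs counted with dividing cells. Where the *Gzmd* UMIs fall thus depends on where the limit is set. The 74 such cells held 7346 CPM of *Gzmc* and the other 139 held 4184 CPM, while *Gzmb* measured 1347 and 1968 CPM, *Xcl1* 960 and 1773 CPM, *Spp1* 1287 and 452 CPM and *Ccl5* 290 and 1839 CPM. The 90 cells with a *Klrg1* UMI likewise held more *Gzmc* than the 123 without, 8006 and 4013 CPM with medians of 52 and 19 UMIs. They held 5639 CPM of *Gzma* against 2227 CPM, *Xcl1* measured 680 and 1917 CPM, *Ccl5* 839 and 1137 CPM and *Spp1* 1564 and 314 CPM, while the S and G2M lists were near each other at 8107 and 8429 CPM. The cells with *Klrg1* were also somewhat deeper, with a median of 13390.5 against 10302 UMIs.

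Levels also changed with the number of *Gzmc* UMIs on both sides of the threshold. *Ccl5* was 6321 CPM in the 1511 cells with no *Gzmc* UMI, 4075 CPM in the 306 with 1 or 2, 3264 CPM in the 39 with 3 or 4, 1994 CPM in the 33 with 5 to 9 and 579 CPM in the 78 with 50 or more. *Spp1* went the other way, from 40.7 CPM with no *Gzmc* UMI to 146, 216 and 312 CPM in the next classes, but it was 396 CPM at 10 to 19 and 316 CPM at 20 to 49 UMIs before 1507 CPM at 50 or more. *Klrg1* measured 24.5, 21.7 and 18.3 CPM in the first 3 classes, 58.6 CPM at 5 to 9 UMIs and 190 CPM at 50 or more. *Ccl5* and *Spp1* were thus already ordered below the threshold, and the median depth climbed alongside, from 4353 to 16155.5 UMIs. *Gzmb* stayed between 1111 and 1784 CPM over the classes, without a steady order.

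**Figure D5:**
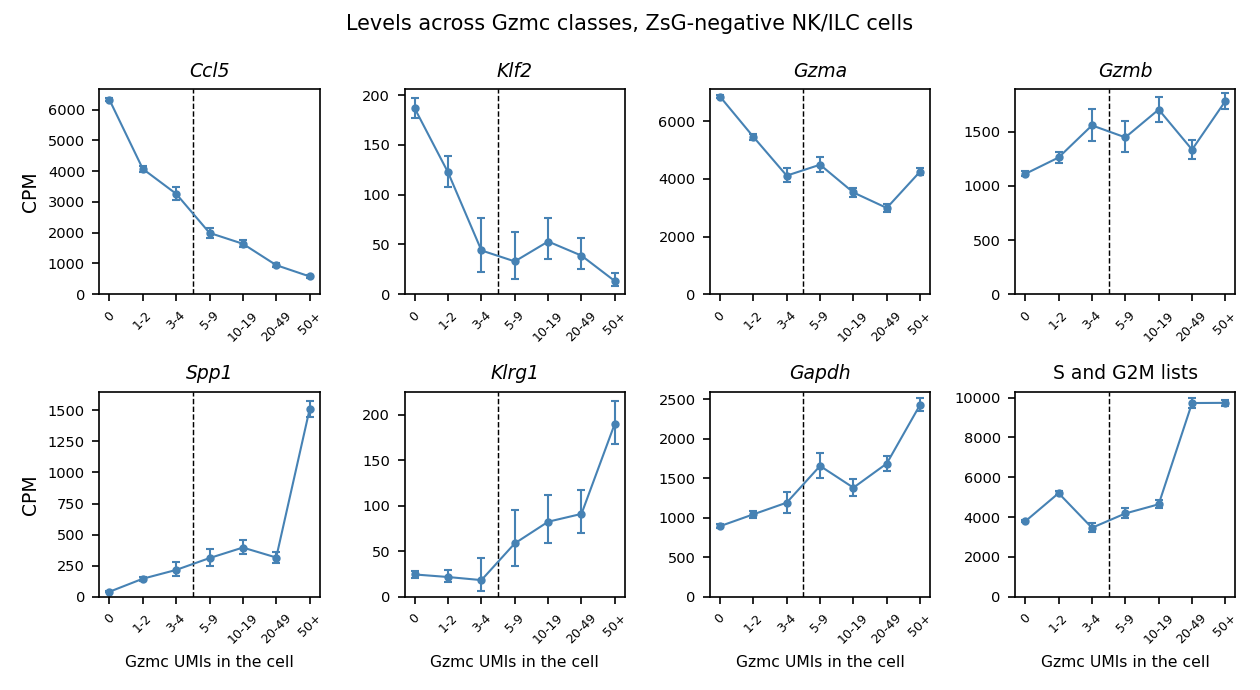
CPM (linear axis) of 7 genes and of the summed S and G2M lists in ZsG-negative NK/ILC cells by class of *Gzmc* UMIs per cell, with exact Poisson 95% intervals and the threshold of 5 UMIs as a dashed line. *Ccl5* (6321 to 579 CPM) and *Klf2* (187 to 13.2 CPM) are lower in the last class than in the first, while *Spp1* is higher in the last class (1507 CPM) than in the first (40.7 CPM), without a steady order between 5 and 49 UMIs.

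Other Gzmc-low cells were also used as the comparison. Against the 1613 Gzmc-low cells with Ly49 genes, 529 genes were higher and 392 lower, and against the 175 without a UMI of the 5 Ly49 genes, 605 and 661, with cell number and kind changing together. The Ly49-negative Gzmc-low cells held less *Gzmb* (527 CPM) and more *Xcl1* (1785 CPM) than the Ly49-positive ones (1217 and 933 CPM), so the Gzmc-high cells, at 1630 CPM of *Gzmb*, lay above both. The T cells of the same library gave a separate view, since they share no cell with either NK/ILC group. In 107 T cells with at least 5 *Gzmc* UMIs against 1291 with fewer, *Ccl5* measured 602 and 2868 CPM and *Spp1* 11.2 and 4.55 CPM. *Klrg1*, which was higher in Gzmc-high NK/ILC cells, went the other way in these T cells, at 3.28 and 10.1 CPM. *Spp1* was thus far lower in the Gzmc-high T cells than in the Gzmc-high NK/ILC cells. Over all 9925 genes tested in these T cells, 2.61% were at least 2-fold higher and 7.53% at least 2-fold lower. Of the 15 named higher genes 10 were 2-fold higher in them, and of the 15 named lower genes 12 were 2-fold lower. The T cells differed even more in depth, with medians of 36260 and 6747 UMIs, so a shared effect of depth and one of *Gzmc* cannot be told apart in these counts.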

How the data were processed

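Per the labels and the file headers, the authors sequenced each sorted fraction with 10x 3′ v3.1 chemistry, ran Cell Ranger on the mouse build mm10 and merged the 2 libraries of each sort with aggr. The methods and the header of the T cell matrix name version 6.1.2, and the header of the CD45 matrix 7.0.0. The sources read do not state whether aggr evened out depth. The deposited values are whole UMI counts per gene and barcode, for 32285 genes in the CD45 sort and 31053 in the T cell sort. The barcode suffix gave the library. The order of the libraries in the T cell sort is contradictory in the sources, so that sort was used only pooled.

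The members, the 29 gene lists and the tests were chosen with earlier results of these data known. A cell was kept if it had at least 1000 and fewer than 6000 genes and under 10% of its UMIs from mitochondrial genes. Each group's UMIs were added up, scaled to CPM, and compared as log2 ratios with 0.5 added to each sum, for genes found in 5% or more of either group's cells. With 1 library per gate no test was possible, and a 2-fold difference was counted. The 95% intervals were exact: Poisson for sums, Clopper-Pearson for shares of cells and conditional binomial for ratios. The named genes were the 15 highest and 15 lowest log2 ratios among genes found in 10% or more of the higher group's cells and the same direction in the UMI window, without the 9 genes of the rule, and a few members of each list, with abundant ones first. For shares across depths, cells were thinned to 3000 UMIs, which left out 214 Gzmc-low and no Gzmc-high cells. The step that sums and compares genes was tested on simulated data. Scrublet marked 1 of 4699 ZsG-negative and 0 of 4123 ZsG-positive cells and was taken as not having worked, so no cell was removed as a doublet, and leaving out the top 5% of its scores was an alternative.

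Other alternatives were a *Gzmc* minimum of 3 or 10 UMIs or 1000 CPM, only cells with 0 *Gzmc* UMIs as comparison, the UMI window, thinning, means over cells, no dividing cells, a mitochondrial limit of 5%, 0 UMIs of the *Cd3* and C1q genes, both libraries summed, totals without mitochondrial, ribosomal protein and granzyme genes, TMM factors (edgeR 4.0.16), DESeq2 1.42.0 size factors, and other filters on genes. R 4.3.3 ran these factors, scanpy 1.11.5 ran Scrublet, matplotlib 3.10.9 drew the figures, and scipy 1.17.1, numpy 2.4.6 and pandas 2.3.3 under Python 3.11.15 did the rest. The separate values of 1 gene of the conventional NK list are not reported here.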

Additional observations from a re-analysis of the deposited data

Results flagged for a closer look

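*Slc17a6* differed in direction between cell types of the ZsG-negative library. Its log2 ratio of cells with at least 5 *Gzmc* UMIs over cells with fewer was 4.59 (3.73 to 5.70) in NK/ILC cells, where 25 Gzmc-high cells held it, and -0.74 (-1.43 to -0.16) in T cells, at 6.84 against 11.6 CPM. The log2 ratio in T cells was thus 5.33 below that in NK/ILC cells (a difference of -5.33), and this difference was not tested. The NK/ILC ratio was 3.59 with a minimum of 10 *Gzmc* UMIs, 3.65 with 1000 CPM and 6.60 with 0 UMIs of the *Cd3* and C1q genes. Its Gzmc-low side rests on 11 UMIs in 4 cells, the fullest with 8. Within the UMI window the NK/ILC ratio was 1.67 (0.50 to 3.04). T cells of the TCR sort, both libraries pooled, gave 0.37 (-1.23 to 1.46) from 6 UMIs in cells with at least 5 *Gzmc* UMIs, so the opposite direction was not seen there.

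The sort of TCR-positive cells, outside the comparisons above, also held cells that met every limit of the rule. Of its 3532 barcodes 2694 passed the filter on cells, 53 of these were in the NK/ILC gate and 3 had at least 5 *Gzmc* UMIs. These 3 cells held 19, 9 and 26 *Gzmc* UMIs, 10, 8 and 8 *Gzmb* UMIs, and 4, 3 and 13 UMIs of the T cell receptor constant genes, with 0 *Klrg1* UMIs in each.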

How the results depend on the processing

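No paired analysis was possible because each gate is 1 library. Over 38 recomputed gene counts 31 stayed within 1.5 times. Against 521 of 8898 genes higher, there were 261 of 8927 within the UMI window and 244 of 6029 after thinning to 3000 UMIs. Without dividing cells there were 219 of 8147, and the cause of these differences was not tested. With genes in at least 10% of cells 344 were higher and 238 lower, and with no filter 1359 and 1020, since fewer or more genes were tested. Of 510 values of the 30 named genes over 17 alternatives, 412 lay inside the counting interval of the value reported, and 98 lay outside. The latter were spread unevenly. Within the UMI window all named genes but *Gzmd*, *Ninj1* and *Smpdl3a* lay outside, whereas with TMM factors only *Ccl5* did. The direction of the named genes in the UMI window was fixed by how they were chosen, and *Kntc1* without dividing cells rests on 0 against 3 UMIs. The share of ZsG-negative NK/ILC cells that were Gzmc-high was 12.2% with a minimum of 3 *Gzmc* UMIs, 8.70% with 10 and 7.98% after thinning. The ZsG-positive share was 0% with a minimum of 10, with a mitochondrial limit of 5% and after thinning. It was 4.76% (4 of 84) with a minimum of 3 and 4.35% (1 of 23) with 0 UMIs of the *Cd3* and C1q genes. Without thinning, 34.7% of Gzmc-high and 3.34% of Gzmc-low cells were dividing. Another scaling moved the median of all genes by at most 0.08 on the log2 scale. With 1 library per gate, the spread between mice is unknown, and the 2 ZsG-positive cells allow no comparison of the gates.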
